A study of Homo sapiens with 10 samples.

Results

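Metallothioneins are small cysteine-rich proteins that hold zinc and copper ions and can take up toxic metals such as cadmium. Their genes lie in a cluster on human chromosome 16, and the zinc-finger factor MTF1, encoded on chromosome 1, binds metal response elements in their promoters when free zinc is high. The family is also known to respond to glucocorticoids and to oxidants. The results below concern 7 metallothionein genes (MT1E, MT1F, MT1G, MT1H, MT1M, MT1X and MT2A) together with MTF1, which were measured by 14 probe sets of 54675 on the array. Members were all probe sets that the platform annotation gives to exactly 1 of these symbols, and no member symbol occurred on a probe set with several symbols.

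Expression was measured on Affymetrix arrays in IMR90 human fetal lung fibroblasts, grown in 3% oxygen and 10% serum. Senescent cells, at 90 population doublings, had been passaged until growth stopped and kept for another 2 weeks, and filled 5 arrays. Proliferating cells, at 28 population doublings, filled the other 5. Doubling number and growth state differ together and cannot be told apart, and no label names an added metal, an inhibitor or an engineered allele. The labels leave unsaid whether cultures were separate for each array. Every p-value below therefore speaks for the spread among these 10 arrays, which may be technical. All values are the deposited log2 values, on which a difference of 1 is 2-fold.

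The probes matter for this family because its members are close in sequence. Of the 11 metallothionein probe sets, the 9 with clear signal all carry the suffix _x_at, by which the manufacturer marks probes that can also bind other transcripts. The remaining 2, for MT1G (210472_at) and MT1M (217546_at), carry the plain suffix _at and lay low on all 10 arrays. One MT1X probe set, 204326_x_at, is listed with a RefSeq accession that belongs to MT1L, a transcribed pseudogene of the same cluster. A value given below to 1 metallothionein gene can therefore hold signal of its relatives, and this was not tested.

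Promoters are shown because MTF1 acts on metallothionein genes through metal response elements there. RefSeq's promoter table (GRCh38.p14) held 4 of the 8 members. For each, the 250 bases before the gene start are printed in lower case, with matches to the metal response element core in capitals. The core was searched as TGCACNC and TGCGCNC on both strands, and no base fell in more than 1 match.
MT2A (chr16:56608334-56608583, plus strand): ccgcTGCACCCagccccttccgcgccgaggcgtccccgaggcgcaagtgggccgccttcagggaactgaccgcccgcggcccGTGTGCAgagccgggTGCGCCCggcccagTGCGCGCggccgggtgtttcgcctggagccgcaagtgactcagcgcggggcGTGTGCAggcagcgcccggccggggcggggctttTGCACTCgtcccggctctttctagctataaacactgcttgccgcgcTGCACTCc
MT1X (chr16:56682220-56682469, plus strand): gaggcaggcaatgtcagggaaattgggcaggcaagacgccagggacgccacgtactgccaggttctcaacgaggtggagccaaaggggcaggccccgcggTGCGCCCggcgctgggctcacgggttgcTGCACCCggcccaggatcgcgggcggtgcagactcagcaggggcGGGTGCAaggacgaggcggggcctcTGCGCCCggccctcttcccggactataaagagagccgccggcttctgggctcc
MT1H (chr16:56669564-56669813, plus strand): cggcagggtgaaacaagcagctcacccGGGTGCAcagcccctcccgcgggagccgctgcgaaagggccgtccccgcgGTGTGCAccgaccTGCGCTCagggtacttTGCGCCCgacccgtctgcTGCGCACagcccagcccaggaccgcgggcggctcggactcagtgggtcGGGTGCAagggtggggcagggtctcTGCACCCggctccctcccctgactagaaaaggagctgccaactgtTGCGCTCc
MTF1 (chr1:37859593-37859842, minus strand): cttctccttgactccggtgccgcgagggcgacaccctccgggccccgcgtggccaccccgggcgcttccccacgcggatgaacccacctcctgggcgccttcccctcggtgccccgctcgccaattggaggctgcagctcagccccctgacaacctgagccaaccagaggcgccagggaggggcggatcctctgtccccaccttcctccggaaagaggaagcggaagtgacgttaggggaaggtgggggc

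The core matched 8 times before MT1H, 7 times before MT2A and 4 times before MT1X, and MTF1 had 0 matches in this window. Among all 35116 promoter windows of the same length in the table, 9.87% held TGCACNC, 16.8% held TGCGCNC and 24.8% held either. At least 4 matches occurred in 0.37% of these windows, at least 7 in 0.0313% and at least 8 in 0.0171%. Each of the 3 metallothionein promoters had a gene-strand match at nearly the same distance. It lay at positions -54 to -48 in MT2A and -53 to -47 in MT1X and MT1H, where -1 is the last base before the start. MT2A and MT1H had a nearer gene-strand match at -8 to -2, which MT1X lacked. The 4 member windows were 70% to 73.2% G or C, and the comparison with all windows was not matched for this. A match describes letters and does not show that MTF1 was bound in these cells.

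**Figure D1:**
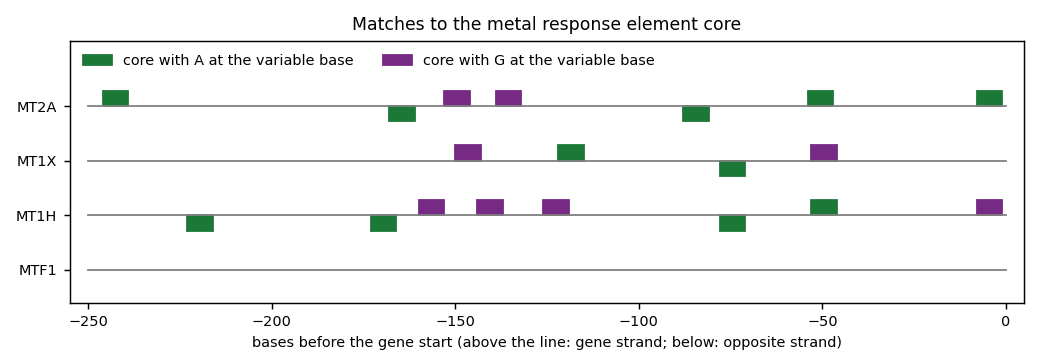
Positions of metal response element core matches in the 250 bases before the start of MT2A, MT1X, MT1H and MTF1, with the gene strand above each line and the opposite strand below. MT1H held 8 matches, MT2A 7, MT1X 4 and MTF1 0.

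The metallothioneins with clear signal had small mean differences between the states, from -0.13 to 0.41 on the log2 scale. Those that were called were higher in senescent cells. For a test, a probe set's value had to exceed the 40th percentile of the array on 5 or more arrays. Of the 14 members 12 met this, 9 of them metallothionein probe sets. At an unadjusted limma p under 0.05 there were 6 of these 12, all higher, and the share over all tested probe sets at that threshold was not computed. At limma's adjusted p under 0.05, 5 of the 12 rose and 0 fell. Over all 32732 tested probe sets 53.0% were called, 26.9% as higher and 26.2% as lower. The members' 41.7%, all of it higher, lies between the shares for either direction and for higher alone, and nothing particular to the members is read from it. The 5 that rose were the MT2A probe set, both MT1X probe sets, 1 MT1G probe set and 1 MTF1 probe set. The median difference was 0.24 over the tested members against 0.03 over all tested probe sets, and the median size of a difference was 0.24 against 0.32. Of all tested probe sets, 38.3% differed by more than the largest member did. In bulk RNA, fewer cells with a transcript and less of it per cell cannot be told apart.

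These small differences depend on the scaling between arrays. Centring each array on the median of housekeeping genes, which moved the median difference of all tested probe sets by -0.126, left 1 member higher (MTF1 227150_at, 0.37, limma's adjusted p = 5.7e-04) and 1 lower (MT1E 212859_x_at, -0.26, adjusted p = 0.029). Under this scaling 57% of all tested probe sets were called, against 53.0% as deposited. The split of all calls went to 37.4% higher under this scaling, against 50.7% higher as deposited. The housekeeping genes themselves were not level: as deposited 5 rose and 10 fell of 24 tested, with a median of -0.08. HPRT1, GPI and GUSB fell by 1.82, 1.12 and 1.06, HPRT1 with another probe set at 0.06, and EMC7 rose by 1.01.

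**Figure D2:**
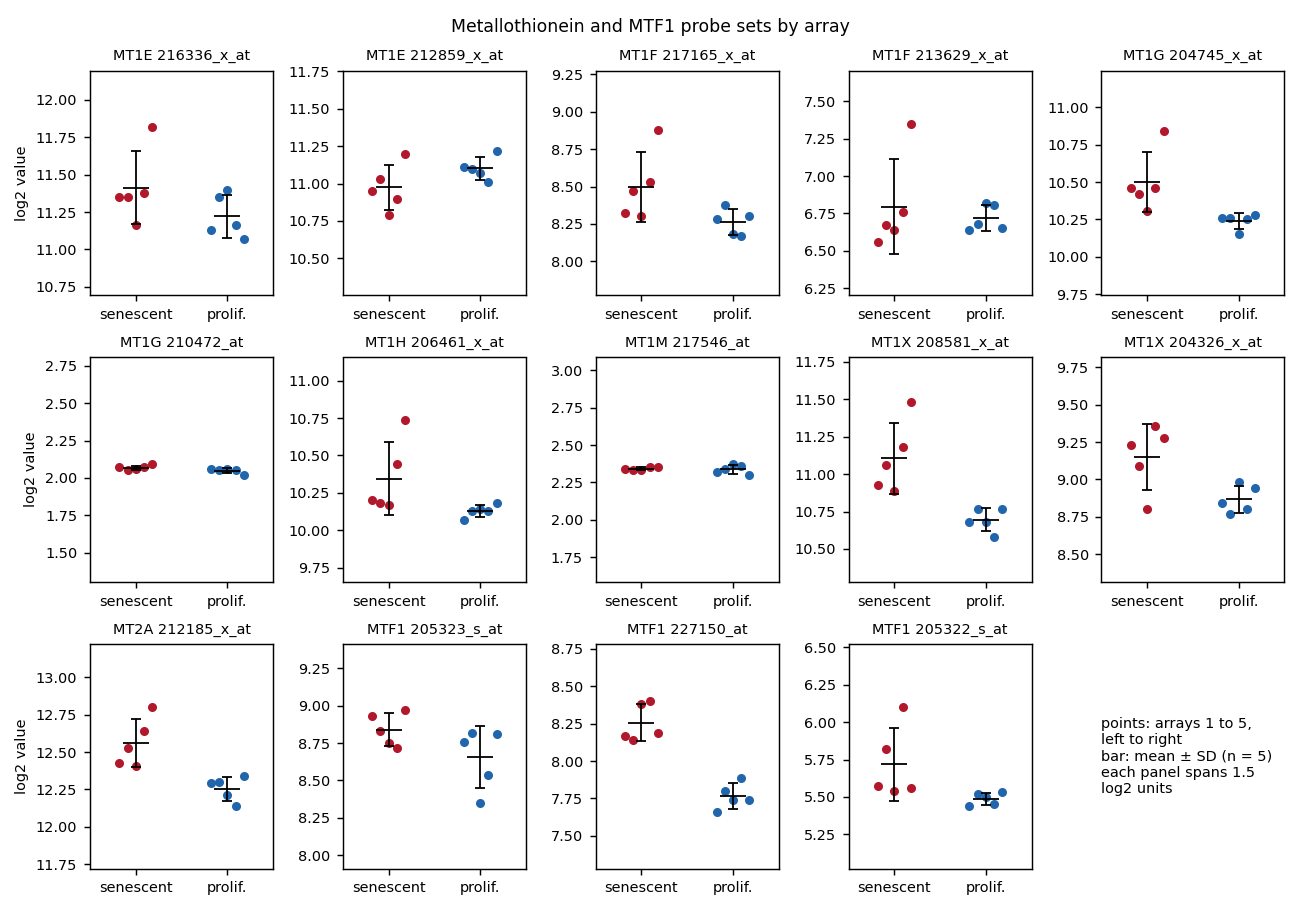
Deposited log2 values of the 14 member probe sets in senescent (left, red) and proliferating (right, blue) cells, with points for the 5 arrays of each group and bars for mean ± SD; every panel spans the same height. The groups did not overlap for MT2A 212185_x_at, MT1X 208581_x_at, MT1G 204745_x_at, MTF1 227150_at and MTF1 205322_s_at.

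MT2A encodes the metallothionein found in most tissues, and its gene opens the array of human type 1 and 2 metallothionein genes on chromosome 16. Its probe set 212185_x_at had log2 values of 12.43, 12.53, 12.41, 12.64 and 12.80 on senescent arrays 1 to 5, against 12.29, 12.30, 12.21, 12.14 and 12.34 on proliferating arrays 1 to 5. Every senescent array lay above every proliferating array, although the gap between senescent 3 and proliferating 5 was small. The mean was 12.56 ± 0.16 in senescent and 12.25 ± 0.08 in proliferating cells (SD, n = 5 each). The log2 difference was 0.31 (SE 0.08, 95% interval 0.13 to 0.48), or 1.24-fold. Limma's adjusted p was 0.0080, and the exact permutation p was 0.00794, two-sided, the lowest possible with 252 ways to assign the 10 arrays. With housekeeping centring the difference was 0.18 (limma's adjusted p = 0.11), and over the other alternatives it lay between 0.25 and 0.45 and was called each time. Without senescent 5, the highest array, it was 0.25 (limma's adjusted p = 0.0099).

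MT1X, the last functional gene of the cluster and like MT2A inducible by zinc and cadmium, had the largest difference of the 9 tested metallothionein probe sets. Probe set 208581_x_at had 10.93, 11.06, 10.89, 11.18 and 11.48 on senescent arrays 1 to 5, against 10.68, 10.77, 10.68, 10.58 and 10.77 on proliferating arrays 1 to 5 (log2). Again the groups did not overlap, and senescent 5 was the highest array. The means were 11.11 ± 0.24 in senescent and 10.70 ± 0.08 in proliferating cells (SD, n = 5 each), a difference of 0.41 (SE 0.11, 95% interval 0.18 to 0.65, limma's adjusted p = 0.0076), or 1.33-fold. It was 0.28 with housekeeping centring (limma's adjusted p = 0.058) and 0.32 without senescent 5 (adjusted p = 0.0041).

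The MT1X probe set listed with the MT1L accession, 204326_x_at, gave the same direction with less certainty. It had 9.23, 9.09, 8.80, 9.36 and 9.28 on senescent arrays 1 to 5, against 8.84, 8.77, 8.98, 8.80 and 8.94 on proliferating arrays 1 to 5 (log2). Here senescent 4 was highest, and senescent 3 lay among the proliferating arrays, so 4 of 5 senescent arrays exceeded all proliferating ones. The difference was 0.29 (SE 0.10, limma's adjusted p = 0.034), and its exact permutation p was 0.0397. The call was lost without any 1 of proliferating 1, 2 or 4 or senescent 1, 4 or 5, with differences of 0.28, 0.26, 0.27, 0.27, 0.24 and 0.25 (limma's adjusted p from 0.064 to 0.079), and with the replicate number as a block (0.29, adjusted p = 0.075). It also missed the threshold with housekeeping centring (0.16, limma's adjusted p = 0.18) and with a covariate for RNA quality (0.36, adjusted p = 0.097). The same held with no filter (0.29, limma's adjusted p = 0.058) and with 4 against 4 arrays, without senescent 5 and proliferating 2 (0.23, adjusted p = 0.14).

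MT1G was measured by 2 probe sets, 1 bright and 1 near the lowest values of the arrays. The one marked as able to bind other transcripts, 204745_x_at, had log2 values of 10.46, 10.42, 10.31, 10.46 and 10.84 on senescent arrays 1 to 5 and 10.26, 10.26, 10.15, 10.25 and 10.28 on proliferating arrays 1 to 5. The groups did not overlap, and the proliferating arrays were tightly packed. The difference was 0.25 (SE 0.09, 95% interval 0.06 to 0.45), or 1.19-fold (limma's adjusted p = 0.034), and its exact permutation p was 0.00794. The call was lost in 7 of the 10 fits that left out an array: without proliferating 1, 2, 3, 4 or 5 the differences were 0.26, 0.26, 0.23, 0.26 and 0.26, and without senescent 1 or 4 they were 0.26 each (limma's adjusted p from 0.050 to 0.076). Without senescent 5 the difference was 0.17 and was called (limma's adjusted p = 0.013), and with housekeeping centring it was 0.13 (adjusted p = 0.27). With no filter the adjusted p was 0.056.

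MT1G's other probe set, 210472_at, lay between 2.05 and 2.09 in senescent cells and between 2.02 and 2.06 in proliferating cells (log2). MT1M, whose only probe set was 217546_at, lay between 2.33 and 2.35 in senescent and between 2.30 and 2.37 in proliferating cells. Both were below the 40th percentile of their arrays, which was 2.66 to 2.74, so neither was tested and no detectable level can be given for MT1M. Fitted without the filter, limma's adjusted p was 0.21 for MT1G 210472_at and 0.89 for MT1M 217546_at.

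MT1F, MT1H and MT1E did not pass the threshold on any of their probe sets. MT1H 206461_x_at had 10.20, 10.18, 10.17, 10.44 and 10.74 on senescent arrays 1 to 5 and 10.07, 10.13, 10.14, 10.13 and 10.18 on proliferating arrays 1 to 5 (log2). Of the senescent arrays 4 lay above every proliferating array, 2 of them narrowly, and the difference of 0.22 had a 95% interval of -0.02 to 0.46 (limma's adjusted p = 0.11, exact permutation p = 0.0159). MT1F 217165_x_at had 8.32, 8.47, 8.30, 8.53 and 8.88 on senescent arrays 1 to 5 and 8.28, 8.38, 8.18, 8.17 and 8.30 on proliferating arrays 1 to 5. Its groups overlapped, and its difference of 0.24 (SE 0.11) missed the threshold (limma's adjusted p = 0.083; exact permutation p = 0.0476). It was called in 3 alternatives: with the covariate for RNA quality (0.46, adjusted p = 0.023), with array weights (0.22, adjusted p = 0.048) and without senescent 3 (0.29, adjusted p = 0.047).

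The remaining MT1F and MT1E probe sets had 95% intervals on both sides of 0, which does not show that the states were level for these genes. For MT1F 213629_x_at the interval was -0.23 to 0.38. MT1F 213629_x_at averaged 6.80 ± 0.32 in senescent and 6.72 ± 0.09 in proliferating cells (SD, n = 5 each), and its difference of 0.08 rested on senescent 5 (7.35), turning to -0.06 without it and to -0.05 with housekeeping centring. MT1E was measured by a pair of _x_at probe sets whose differences had opposite signs. For 216336_x_at the mean was 11.41 ± 0.24 in senescent and 11.22 ± 0.14 in proliferating cells, a difference of 0.19 (95% interval -0.07 to 0.46). For 212859_x_at it was 10.97 ± 0.15 in senescent and 11.10 ± 0.08 in proliferating cells, a difference of -0.13 (95% interval -0.30 to 0.04). Limma's adjusted p was 0.20 and 0.17 for this pair, and the difference between its members was not tested. MT1E 212859_x_at passed as lower with housekeeping centring (-0.26) and without senescent 5 (-0.19), with limma's adjusted p = 0.029 each. The fit of 4 against 4 arrays, which largely repeats leaving out senescent 5, gave -0.19 (limma's adjusted p = 0.048).

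**Figure D3:**
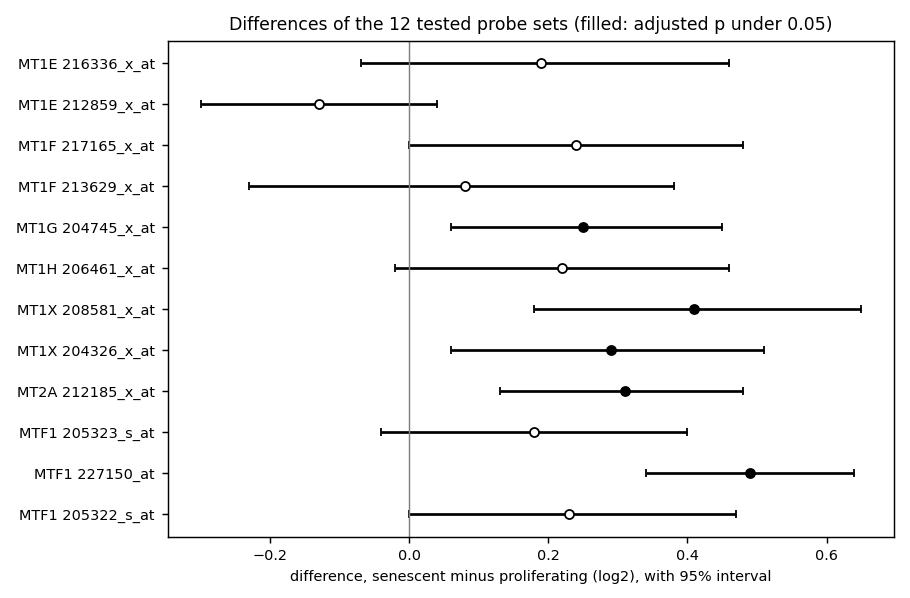
Log2 difference of senescent minus proliferating cells for the 12 tested member probe sets, with limma's 95% interval (n = 5 arrays per group); filled points passed the adjusted threshold. The 5 filled points lie between 0.25 and 0.49, and the only point below 0 is MT1E 212859_x_at at -0.13.

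MTF1, the metal-sensing factor, was measured by 3 probe sets, all with a higher mean in senescent cells. Probe set 227150_at had 8.17, 8.14, 8.38, 8.40 and 8.19 on senescent arrays 1 to 5, against 7.66, 7.80, 7.74, 7.89 and 7.74 on proliferating arrays 1 to 5 (log2). The groups were well apart, the lowest senescent array exceeding the highest proliferating one by more than the SD within either group. The difference was 0.49 (SE 0.07, 95% interval 0.34 to 0.64), or 1.41-fold (limma's adjusted p = 1.2e-04), and its exact permutation p was 0.00794. It was called under every alternative in which it was fitted, with values from 0.37 to 0.52.

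The shared MTF1 probe sets differed less. Probe set 205322_s_at had 5.57, 5.82, 5.54, 6.10 and 5.56 on senescent arrays 1 to 5, against 5.44, 5.52, 5.50, 5.45 and 5.53 on proliferating arrays 1 to 5. Its groups did not overlap (exact permutation p = 0.00794), but senescent 3 exceeded the highest proliferating array only slightly, and limma's adjusted p was 0.093 for the difference of 0.23 (SE 0.11). Probe set 205323_s_at, the brightest, averaged 8.84 ± 0.11 in senescent and 8.66 ± 0.20 in proliferating cells (SD, n = 5 each), a difference of 0.18 (95% interval -0.04 to 0.40, limma's adjusted p = 0.15). The mean of the 3 probe sets differed by 0.30 (limma's adjusted p = 4.0e-04). In all, 5 of the 12 tested members had groups that did not overlap, each higher in senescent cells, where 44.5% of all tested probe sets did not overlap and 23.2% did so with senescent cells higher.

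Whether the members changed unequally was asked with differences within each array. These cancel a shift common to all probe sets of an array, but not scaling that varies with signal level. Each of the 7 tested genes stood by its brightest probe set, giving 21 pairs. By an exact permutation test over the arrays, 0 pairs passed after adjustment over the 21 and 5 had an unadjusted p under 0.05, and all of these 5 contained MT1X. The log2 value of MT1H minus that of MT1X differed between senescent and proliferating cells by -0.19 (SE 0.04), MT1F minus MT1X by -0.17 (SE 0.02) and MT1X minus MT2A by 0.10 (SE 0.04). For each of these the exact permutation p was 0.00794, the smallest possible, and the adjusted p was 0.056. Even pairs at the smallest possible p thus did not pass, so 0 calls do not show that the members changed equally. MT1E minus MT1X differed by -0.22 (SE 0.08) and MT1G minus MT1X by -0.16 (SE 0.05), each with an exact permutation p of 0.0317 and an adjusted p of 0.13. These values hold for MT1X 208581_x_at. MT1X 204326_x_at, with a difference of 0.29 against 0.31 for MT2A, was not used for the pairs.

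The metallothioneins varied more between the senescent arrays than between the proliferating ones. The SD was larger in senescent cells for 9 of the 9 tested metallothionein probe sets, with a median of 0.23 against 0.08 in proliferating cells. Over all tested probe sets, 50.5% had the larger SD in senescent cells, and the median SD was 0.13 in senescent and 0.15 in proliferating cells. Array senescent 5 carried much of this. It was the highest senescent array for 8 of the 9 probe sets, where it was so for 30.2% of all tested probe sets, and the exception was MT1X 204326_x_at. Averaged over the 9, it lay 0.34 above the senescent mean, while senescent 3 lay at -0.21 and the proliferating arrays between -0.05 and 0.03. Without senescent 5, the median SD of the 9 in senescent cells was 0.11, and 7 of the 9 had the larger SD there. The share over all tested probe sets without senescent 5 was not computed, so nothing particular to the family is read from this count.

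**Figure D4:**
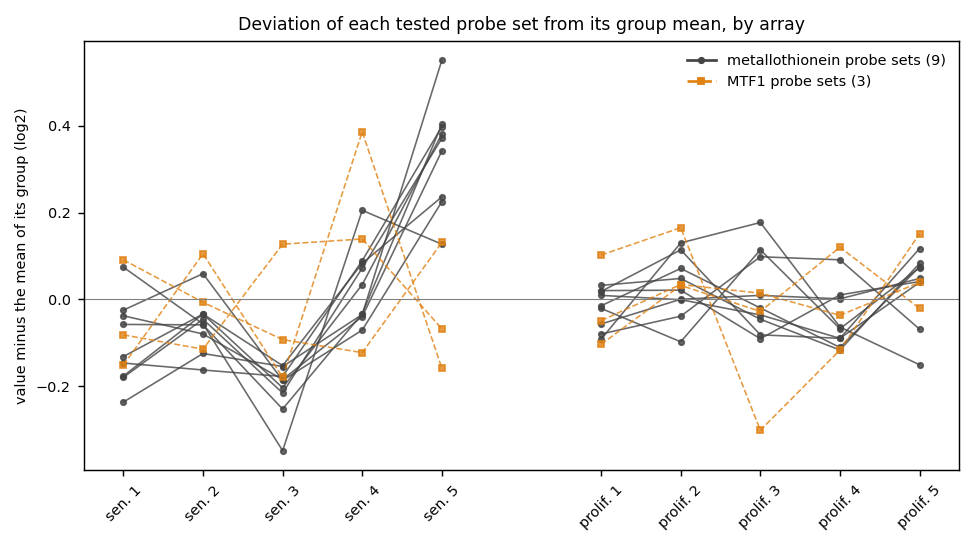
Deviation of each tested probe set from the mean of its own group (log2), by array, for 9 metallothionein probe sets (solid) and 3 MTF1 probe sets (dashed). On senescent 5 the metallothionein probe sets lie 0.13 to 0.55 above their group mean, and on senescent 3 they lie between -0.35 and -0.15.

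After each group's mean was subtracted, the metallothionein probe sets followed each other across the 10 arrays, with Pearson correlations from 0.36 to 0.98 and a median of 0.80 over 36 pairs. These are descriptions of 10 arrays, and the probe sets can share transcripts. Without senescent 5 they ran from -0.40 to 0.96, with a median of 0.47. With MTF1's probe sets they ran from -0.66 to 0.58 over 27 pairs, with a median of -0.01. Without senescent 5 these ran from -0.86 to 0.89, with a median of 0.33.

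The 5 genes most like the family in this within-group pattern were chosen by Pearson correlation with the mean of the 9 metallothionein probe sets over 10 arrays, among 9232 genes. They were ACP4 (0.987), HMGA1 (0.983), MT1HL1 (0.981), FAU (0.963) and RPLP1 (0.962). MT1HL1 is a metallothionein-like gene on chromosome 1 measured by an _x_at probe set, HMGA1 encodes a high-mobility-group chromatin protein, and FAU and RPLP1 encode ribosomal proteins. ACP4 was also measured by an _x_at probe set, with log2 values from 2.62 to 4.49. These lay below the 60th percentile on all 10 arrays, so its pattern rests on low signal. HMGA1 had log2 values of 11.78, 11.88, 11.69, 11.96 and 12.22 on senescent arrays 1 to 5, against 12.07, 12.13, 12.09, 12.06 and 12.18 on proliferating arrays 1 to 5. As in the mean of the metallothioneins, senescent 3 was lowest and senescent 5 highest in its group. Between the states these genes did not move alike: RPLP1 fell by 0.40 (limma's adjusted p = 0.0019), while HMGA1 (-0.20), FAU (-0.16), MT1HL1 (0.22) and ACP4 (0.28) did not pass. Without senescent 5 the correlations were 0.93 for ACP4, 0.96 for HMGA1, 0.90 for MT1HL1, 0.83 for FAU and 0.94 for RPLP1.

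Other metallothionein genes added little. Of 11 listed, 3 were on the array by name and MT1HL1 was the 1 tested, with 10.93 ± 0.22 in senescent and 10.71 ± 0.02 in proliferating cells (SD, n = 5 each) and limma's adjusted p = 0.079. MT3, the metallothionein known from brain, averaged 1.76 in senescent and 1.74 in proliferating cells, and MT4, known from stratified epithelium, 2.15 in senescent and 2.13 in proliferating cells, both below the filter.

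Lists of metal carriers and of related genes held larger single differences than the metallothioneins, and are described here with no test of one list against another. As 38.3% of all tested probe sets differed by more than the largest member, nothing particular to these lists is read from this. Each gene stands by its brightest tested probe set in the fit of all tested probe sets. On this footing 60.2% of 12909 genes were called, 30.5% as higher and 29.8% as lower. Of 7 tested zinc exporters of the SLC30 family, which carry zinc out of the cytosol, 5 rose and 0 fell, with a median difference of 0.28. SLC30A1, the plasma membrane exporter and a known MTF1 target, averaged 10.69 ± 0.11 in senescent and 9.74 ± 0.14 in proliferating cells (SD, n = 5 each), 1.93-fold higher (SE 0.08 on the log2 scale, limma's adjusted p = 2.8e-06). SLC30A4 rose by 1.85, although its 3 probe sets ranged from 0.22 to 1.85, and SLC30A7 by 0.53, with another probe set at -0.21. SLC30A5 rose by 0.28, its 5 probe sets ranging from 0.02 to 0.52, and its call was lost with housekeeping centring (0.15, limma's adjusted p = 0.058) and with the covariate for RNA quality (0.23, adjusted p = 0.13). With housekeeping centring 3 of the exporters rose and 1 fell, and without shared probe sets 5 of 7 rose and 0 fell (median 0.52).

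Zinc importers of the SLC39 family, which bring zinc into the cytosol, rose in 6 of 10 tested cases and fell in 1, with a median difference of 0.43. Without shared probe sets 4 of 8 rose and 1 fell, with a median of 0.17. SLC39A8, a zinc and manganese carrier, averaged 5.03 ± 0.56 in senescent and 2.90 ± 0.05 in proliferating cells, a difference of 2.13 (limma's adjusted p = 2.2e-05), and its 3 probe sets ranged from 0.40 to 2.13. Its signal in proliferating cells lay below the 60th percentile of the arrays, so the size depends on the background correction. SLC39A11, SLC39A13 and SLC39A9 rose by 1.22, 0.80 and 0.61, SLC39A13 with low signal in proliferating cells and SLC39A9 with another probe set at -0.13. The importer that fell, named after its value was seen, was SLC39A14 (-0.36), whose 3 probe sets ranged from -0.76 to 0.05.

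Copper genes rose in 8 of 15 tested cases and fell in 0 (median 0.64). The copper carrier gene SLC31A2 averaged 8.27 ± 0.11 in senescent and 6.43 ± 0.15 in proliferating cells, 3.59-fold higher (limma's adjusted p = 2.9e-08). The copper-exporting ATPase gene ATP7A rose by 1.49 and the prion protein gene PRNP, whose product binds copper, by 1.39. SCO2, a copper chaperone of cytochrome oxidase, rose by 1.41, and by 0.57 with the covariate for RNA quality, where it did not pass (limma's adjusted p = 0.11). Housekeeping centring added 2 lower copper genes. Without shared probe sets 4 of 11 tested copper genes rose and 0 fell, with a median of 0.20.

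Iron genes moved in both directions, with 5 higher and 3 lower of 14 tested and a median of 0.02. The biliverdin reductase gene BLVRB and the ferritin light chain gene FTL rose by 0.83 and 0.65, and the poly(C)-binding protein genes PCBP2 and PCBP1, whose products also carry iron to ferritin, fell by 0.66 and 0.56. PCBP2's 5 probe sets ranged from -0.66 to 0.25.

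**Figure D5:**
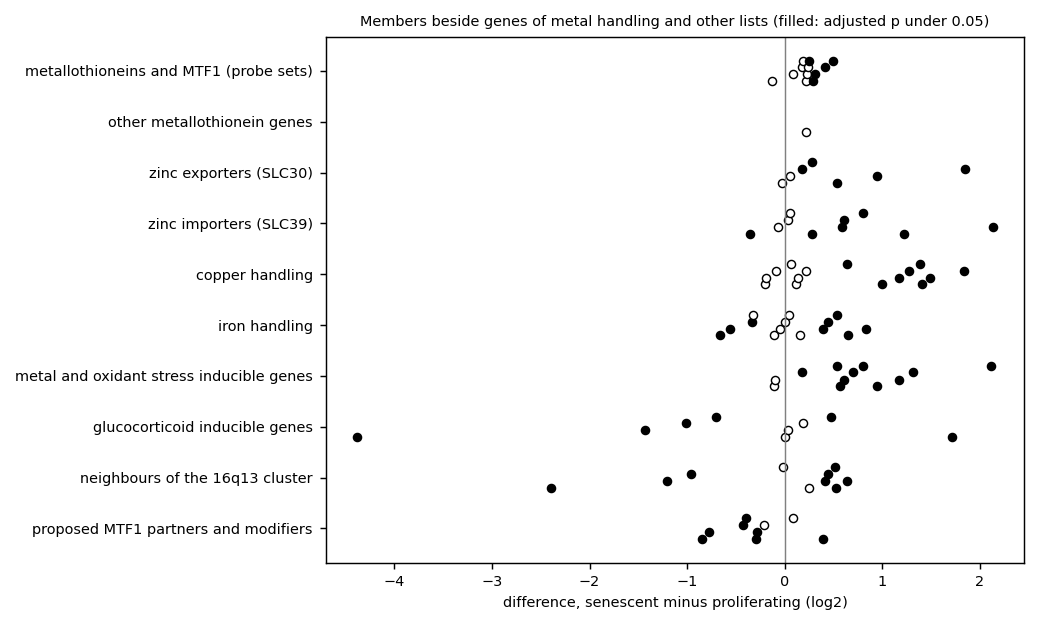
Log2 difference of senescent minus proliferating cells for the 12 tested member probe sets (top) and for each tested gene of the other lists by its brightest probe set; filled points passed limma's adjusted threshold. The members lie between -0.13 and 0.49, a narrower range than the zinc exporters (-0.03 to 1.85) or copper genes (-0.20 to 1.84). Among all tested probe sets 38.3% differed by more than the largest member.

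Genes induced by metals or oxidants rose in 10 of 12 tested cases and fell in 0 (median 0.65), a list that also holds SLC30A1. The stress factor gene ATF3 averaged 7.83 ± 0.34 in senescent and 5.73 ± 0.40 in proliferating cells, a difference of 2.11, and the cystine carrier gene SLC7A11 and the glutathione synthesis gene GCLC rose by 1.31 and 1.17. GCLC's 3 probe sets ranged from 0.31 to 1.17. HMOX1, a heme oxygenase gene that cadmium strongly induces, was chosen after its value was seen: it averaged 5.09 ± 0.15 in senescent and 5.20 ± 0.11 in proliferating cells (SD, n = 5 each), and limma's adjusted p was 0.29.

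Glucocorticoid-inducible genes, listed because the hormone also induces MT2A, rose in 2 and fell in 4 of 9 tested cases. FKBP5, a chaperone that restrains the glucocorticoid receptor, fell to 5.76 ± 0.22 in senescent cells, against 10.14 ± 0.17 in proliferating cells (SD, n = 5 each), which makes -4.38 on the log2 scale (limma's adjusted p = 1.1e-09). CEBPD and ERRFI1 fell by 1.43 and 1.01, whereas TSC22D3, the leucine zipper gene GILZ, rose by 1.71. The second gene that rose, DUSP1 (0.47), a MAP kinase phosphatase, was named after its value was seen. Of 9 tested genes for proposed partners and modifiers of MTF1, 6 fell and 1 rose (median -0.30). SP1, PRKCA, CREBBP and MAPK8 fell by 0.85, 0.78, 0.43 and 0.40. The gene that rose, named after its value was seen, was NFE2L2 (0.39), which encodes the oxidant-responsive factor NRF2 and had another probe set at -0.26.

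Genes beside the cluster on chromosome 16 changed in both directions, with 5 higher and 3 lower of 10 tested and a median of 0.33. The copine gene CPNE2 fell by 2.40, a size that depends on the background correction because it lay below the 60th percentile on all senescent arrays. It was followed by the cleavage factor gene NUDT21 (-1.21) and the nucleoporin gene NUP93 (-0.96), with a second NUP93 probe set at 0.06. NLRC5, a regulator of HLA class I genes, rose by 0.64 (limma's adjusted p = 0.033), which was 0.08 with the covariate for RNA quality (adjusted p = 0.82) and 0.51 with housekeeping centring (adjusted p = 0.063).

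Of the 13 fibroblast markers 4 rose and 4 fell. LUM and PDGFRA rose by 1.49 and 0.72, PDGFRA's 3 probe sets ranging from 0.04 to 1.56, and FAP and COL3A1 fell by 1.69 and 0.50. All 13 gave signal above the 60th percentile on at least 1 array, and their summed log2 level was 17.15 to 17.26 in senescent and 17.14 to 17.36 in proliferating cells. Of the leukocyte markers on the array 8 of 8 lay below that percentile on all arrays, as did 7 of 8 endothelial, 6 of 10 epithelial and 1 of 7 smooth muscle markers. Summed log2 levels were 5.55 to 5.65 in senescent and 5.54 to 5.58 in proliferating cells for leukocyte markers. They were 10.47 to 10.69 in senescent and 9.65 to 10.06 in proliferating cells for endothelial markers, 8.35 to 8.71 in senescent and 8.56 to 8.69 in proliferating cells for epithelial markers, and 13.27 to 13.46 in senescent and 12.56 to 13.05 in proliferating cells for smooth muscle markers. Single bright genes set the last of these sums and the endothelial one. The actin gene ACTG2 averaged 13.28 in senescent and 12.75 in proliferating cells, while among the smooth muscle markers 2 rose (ACTG2 and LMOD1) and 2 fell, MYOCD by 2.77 and MYH11 by 0.72, with another MYH11 probe set at 0.71. TEK, an endothelial receptor gene, averaged 10.52 in senescent and 9.90 in proliferating cells, but its other tested probe set differed by -1.08, and with the mean of probe sets 0 of the 2 tested endothelial markers were called. The epithelial sum held changes in opposite directions, as 2 of its 4 tested markers fell and 1 rose. EPCAM (-2.31, limma's adjusted p = 1.1e-06) and KRT19 (-1.26, adjusted p = 0.0023) were lower in senescent cells. SFTPC, the brightest epithelial marker, averaged 7.77 in senescent and 7.43 in proliferating cells, and its call was lost with housekeeping centring (0.22, limma's adjusted p = 0.11). The part of these markers in the members' values was not tested. As a sign of RNA quality, the 3' minus 5' difference of the ACTB control probe sets was 2.32 ± 0.10 in senescent and 2.07 ± 0.14 in proliferating cells (SD, n = 5 each). The groups did not overlap, with 2.24 to 2.47 on senescent and 1.85 to 2.19 on proliferating arrays. RNA quality by this sign therefore goes with the state, and a fit with it as a covariate cannot separate them. In that fit 5 of the 12 tested members rose and 0 fell, where 40.6% of all tested probe sets were called, 49.2% of them as higher. MT2A and MT1X 208581_x_at differed by 0.45 and 0.61 there.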

How the data were processed

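The deposited log2 values, a single one for each of 54675 probe sets on 10 arrays, were made by the authors with GCRMA and Partek, per the submitters' processing notes; any further step is not given here. That the scale is log2 was read from the range of the values (0.625 to 16.2), and array medians lay between 3.05 and 3.12. Values were used as deposited. Detection calls and scan dates were not used here, and 5 arrays per group limit the precision.

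Probe sets were named from the platform annotation, and RefSeq's table (GRCh38.p14) gave the current symbol by gene identifier (41037 of 41091 probe sets with 1 symbol; 1801 had several and 11721 none). The 62 controls were left out, and 32732 probe sets passed the filter. Senescent minus proliferating means were compared by limma 3.58.1 (R 4.3.3; lmFit, then eBayes; two-sided), and p-values were adjusted after Benjamini and Hochberg over all tested probe sets. Exact permutation tests used scipy 1.17.1. The fit was tested on simulated data. The members, lists, tests and alternatives were chosen with earlier results of these data known.

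All member probe sets are named, up to 4 called genes with the largest differences per list (or the 1 furthest where none was called; marker lists are given by counts and sums, with the genes that set or oppose a sum), and the 5 genes with the most similar within-group pattern and a within-group SD of at least 0.1. A list gene's other probe sets are mentioned where they disagree. Same-numbered arrays of the groups did not deviate together (correlations from -0.06 to 0.09). As alternatives the filter was dropped or raised to the 60th percentile. Fits were repeated with 3 other scalings, a replicate block, other variance models, array weights, gene-level fits and exclusion of shared probe sets. They were also repeated with the ACTB 3' minus 5' covariate, without senescent 5 and proliferating 2 (4 against 4 arrays), and leaving out each array.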

Additional observations from a re-analysis of the deposited data

Results flagged for a closer look

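Among 28 groups of 5 arrays, 4 held an array far from the other 4, its gap to the nearest of them exceeding 0.71 of the group's range, and chance gives about 1 such group in 20. For MT1F 213629_x_at (gap 0.744 of the range) and MT1G 204745_x_at (0.721) senescent 5 lay above the other senescent arrays. For MT1G 204745_x_at proliferating 3 lay below the other proliferating arrays (0.770), within a range of 10.15 to 10.28. For MT1G 210472_at proliferating 5 lay below the others (0.793), within 2.02 to 2.06, at a level under the filter.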

How the results depend on the processing

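The number of member probe sets called, 5 higher and 0 lower of 12, was 3 higher of 14 with no filter, 3 higher of 7 with a single probe set per gene, 1 of the 1 left without shared probe sets, and 1 higher and 1 lower (2 in all) with housekeeping centring. With 4 against 4 arrays 5 were called, 4 higher and 1 lower. Leaving out each array gave 3 to 6 called, 3 to 6 higher and 0 to 1 lower. Under the replicate block, where numbers do not pair the arrays, 4 were called. The share of all tested probe sets called also moved. It was 48.6% without shared probe sets, 57% with housekeeping centring, 51.7% with 4 against 4 arrays and 50.9% under the replicate block. Leaving out each array gave 50.2% to 52.1%, and with a single probe set per gene 61.3% of genes were called. MT1F 213629_x_at changed sign with array weights (-0.03), housekeeping centring (-0.05) and without senescent 5 (-0.06). It also did so with 4 against 4 arrays (-0.07), a fit that leaves out senescent 5 too. It was called in none of these, and leaving out each array gave -0.06 to 0.14. MTF1 205323_s_at stood for MTF1 in gene-level fits, and the mean of MTF1's probe sets was called (0.30). Of the 85 tested genes of the metal and other lists, 41 rose and 17 fell (58 in all). Leaving out each array gave 55 to 59 called, 38 to 41 higher and 16 to 18 lower, and 27 rose without shared probe sets, where 65 were tested. Pairs of members called numbered 0 in each alternative run, with 0 to 0 over the fits that left out an array. Fewer arrays raise the smallest possible exact permutation p. These 0 calls could hardly have come out otherwise and do not show that the result is stable. Of all probe sets 53.0% were called, and 30.5% with no filter. The causes of these changes were not tested.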
